A study of Drosophila melanogaster with 5 samples.

Results

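The nuclear genes for the subunits of oxidative phosphorylation were followed in 5 single cells of the pars intercerebralis (PI), a neuroendocrine cluster in the dorsal brain of *Drosophila melanogaster*. Members were all genes of the count table whose FlyBase symbol starts with ND-, Sdh, UQCR-, COX and a digit, or ATPsyn, prefixes that stand for complexes I, II, III, IV and V. The rule found 88 of 17453 genes, of which 63 were core subunits, 24 were paralogs by symbol (ending in L, L with a digit, or -like) and 1, Sdhaf3, was an assembly factor. Of the 63 core subunits, 34 belonged to complex I, 4 to complex II, 6 to complex III, 8 to complex IV and 11 to complex V. They lay on all major chromosome arms, with 12 on 2L, 11 on 2R, 13 on 3L, 13 on 3R, 2 on the fourth chromosome and 12 on X. Their annotated exons were short, with a median of 853 bp (417 to 3817 bp) against a median of 1727 bp over protein-coding genes.

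Oxidative phosphorylation makes most of the ATP of an animal cell. Complex I oxidises NADH and complex II oxidises succinate, and both hand electrons to ubiquinone. Complex III passes them to cytochrome c, complex IV passes them on to oxygen, and complex V (ATP synthase) uses the proton gradient built along the way to make ATP. The subunits are encoded in part by the mitochondrial genome and for the larger part by the nucleus, and because each complex has a set stoichiometry their genes are commonly used as a group that nearly every cell needs. Neurons depend strongly on this pathway for ion pumping and synaptic transmission.

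The study asked which genes PI cells of the circadian output pathway express, and sequenced RNA from 5 cells aspirated with a glass pipet. All flies carried Dilp2mCherry, which marks the insulin-like peptide (DILP) cells of the PI in red. The harvested cells were GFP-positive neighbours of those cells, from flies with kurs58-GAL4 driving UAS-mCD8::GFP or with C767-GAL4 driving UAS-nlsGFP, each transgene in a single copy. Both drivers label cells outside the PI too, and the sources used here do not say which driver marked which cell, nor the age of the flies. A cell set aside by the authors because its reads mapped unselectively is named the excluded cell, and the other 4 are cells 1 to 4. All 5 belong to 1 condition and each is a single cell, so no test between groups was possible. GEO's labels give every cell an animal number of its own, whereas the series record counts 4 animals.

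Levels are given as reads per 1000000 reads assigned to genes (RPM) and as log2(RPM + 1). A gene was counted as present at or above 1 RPM. The excluded cell had 4913151 assigned reads, and the 4 kept cells had between 3451331 and 4441952. A rough limit of 3 reads for a count of 0 came to between 0.611 and 0.869 RPM. The exact Poisson interval of 0 reads reaches higher, from 0.808 in the excluded cell to 1.05 in cell 2 on the log2(RPM + 1) scale, where 1 RPM is at 1. A 95% interval of a count is the exact Poisson interval, and one of a share is the Wilson interval. Both cover counting error only, since reads amplified from 1 cell are not independent molecules. Less RNA in a cell and less RNA captured from it cannot be told apart in these libraries. A mean ± SD runs over the 4 kept cells (n = 4).

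Neuronal and other marker genes were read in the same libraries. A neuron list had 9 genes that were matched by symbol. They summed to 11600 RPM in the excluded cell and to 608, 1025, 1933 and 1936 RPM in cells 1 to 4. *para*, also listed, was not matched and is missing from these sums. The paper's own values for it were highest in cell 3. *brp*, which encodes a protein of the presynaptic active zone, had 0 reads in cell 1, and *Syx1A* had 0 reads in cell 3. The PI neuropeptide gene *Dh44* stood at 381 RPM in the excluded cell and at 111, 147, 131997 and 171 RPM in cells 1 to 4, so cell 3 alone carried it as a leading transcript, while *SIFa* was read only in the excluded cell (99.5 RPM) and cell 3 (19.6 RPM). The DILP gene *Ilp2* was at 156 RPM in the excluded cell and at 1.02, 13.3, 2006 and 0.225 RPM in cells 1 to 4, and *Ilp3* and *Ilp5* were likewise highest in cell 3 (62.3 and 35.1 RPM), although cells without DILP were sought. Lists for photoreceptors (13 genes), fat body (11 genes), glia (8 genes) and muscle with hemocytes (8 genes) were also read. The photoreceptor list summed to 1344 RPM in the excluded cell and to 14399, 16952, 1986 and 48308 RPM in cells 1 to 4, and the fat body list to 1021, 45917, 39500, 9896 and 18079 RPM in the same order. Glial genes summed to 2142 RPM in the excluded cell and to 1775, 3210, 755 and 5056 RPM in cells 1 to 4, and muscle and hemocyte genes to 360 RPM in the excluded cell and to 1770, 722, 429 and 550 RPM in cells 1 to 4. The glial sum was thus lowest in cell 3 and highest in cell 4. Of these lists *ninaA* (photoreceptor) and *Fbp1* and *Fbp2* (fat body) had 0 reads in all 5 cells. The part of these other markers in the results below was not tested.

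Core subunit genes were present in nearly every cell. In the excluded cell 60 of 63 were at or above 1 RPM, and in cells 1 to 4 the counts were 60, 60, 46 and 60. Over all genes of the table the share at or above 1 RPM was 40.7% in the excluded cell and 23.7%, 34.5%, 17.7% and 35.1% in cells 1 to 4. All 4 kept cells had 46 of the 63 core genes at or above 1 RPM, against 11.3% of all genes and 13.9% of protein-coding genes. By the STAR counts, 14 of the other 17 were below 1 RPM only in cell 3, and 3 had 0 reads in every cell. The 14 include SdhB and SdhD, to which MMQuant, described with the shared reads, gave 41 and 105 reads of their own in cell 3. By the sums of the stranded counts, 49 core genes were at or above 1 RPM in all 4 kept cells. Such a sum is an upper limit, since it can count a read over genes on opposite strands for both of them. Over all genes, 55.7% were below 1 RPM in each of the 4 kept cells.

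The complexes differed in how completely they were seen. By the STAR counts, 22 of 34 genes of complex I, 1 of 4 of complex II, 5 of 6 of complex III, 8 of 8 of complex IV and 10 of 11 of complex V were at or above 1 RPM in all 4 kept cells. Reads on the core genes made up 1.69% of assigned reads in the excluded cell and 2.15%, 1.92%, 1.02% and 2.53% in cells 1 to 4 (mean 1.91% ± 0.64). Cell 4 had the largest share and cell 3 the smallest.

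**Figure D1:**
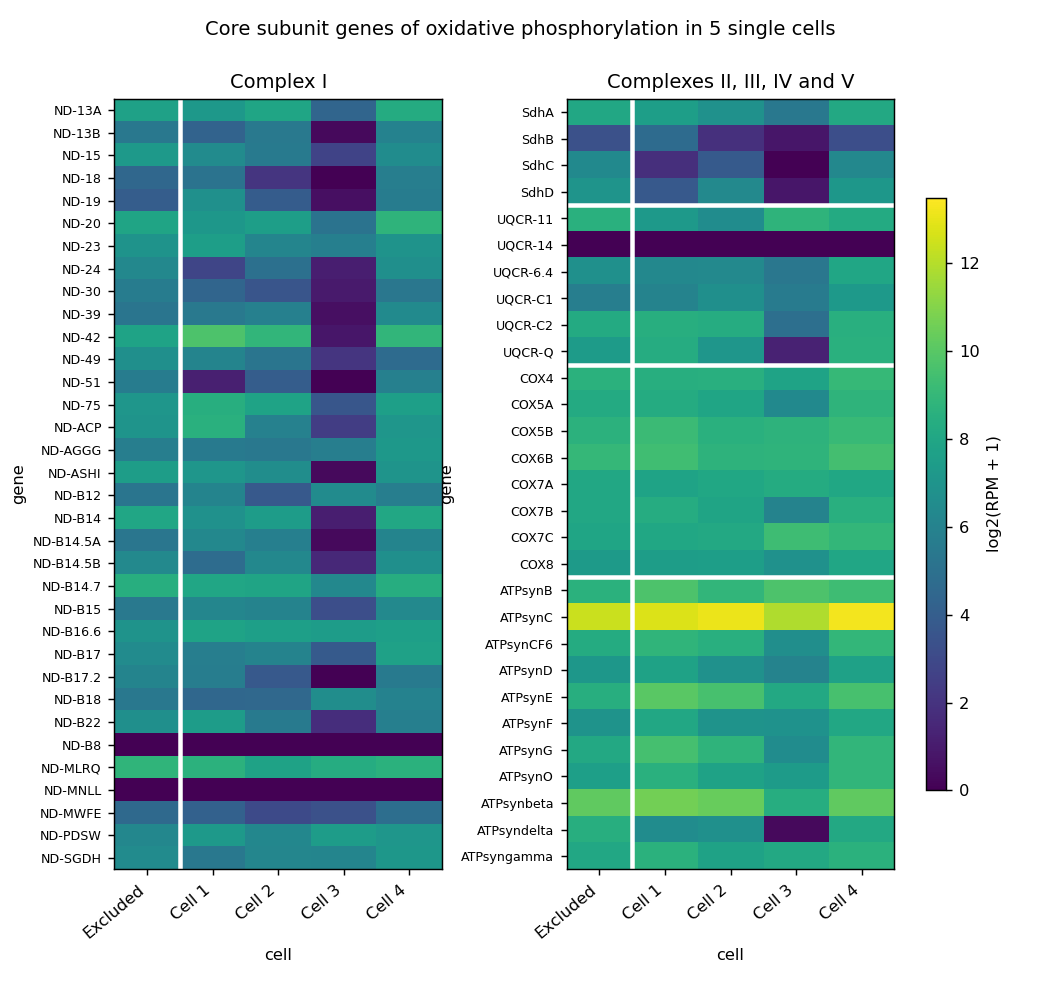
Level of each of the 63 core subunit genes as log2(RPM + 1), from 0 (dark) to the top of the scale (yellow), in the excluded cell and in cells 1 to 4, with complex I on the left and complexes II to V, split by white lines, on the right. ATPsynC is the brightest gene in all 5 cells, UQCR-14, ND-B8 and ND-MNLL are at 0 throughout, and cell 3 is dark in 14 genes that the other kept cells express.

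Complex I takes electrons from NADH in its N module, carries them along iron-sulphur clusters through the Q module to ubiquinone, and pumps protons in its membrane arm. The median level of its 34 core genes was 6.31 on the log2(RPM + 1) scale in the excluded cell and 6.17, 5.83, 2.25 and 6.65 in cells 1 to 4. Cells 1, 2 and 4 lay close to each other, and cell 3 lay far below the lowest of them. For single genes the SD over the 4 kept cells had a median of 1.78, larger than in complexes III, IV and V.

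The N module had the lowest summed level of the 3 parts of complex I in every cell. It also had the fewest listed genes, 7 against 8 in the Q module and 18 in the membrane arm. Its sum, which takes ND-B8 at 0 reads, came to 559 RPM in the excluded cell and 592, 529, 32.9 and 770 RPM in cells 1 to 4. ND-75, the large iron-sulphur subunit of the module, had 660 reads in the excluded cell and 1377, 777, 46 and 871 in cells 1 to 4, which is 7.08 on the log2(RPM + 1) scale in the excluded cell and 8.46, 7.82, 3.62 and 7.62 in the kept cells. ND-75 was thus still measured in cell 3, far below its level in the other 4 cells, and the 95% interval there (3.21 to 4.00) did not reach theirs. ND-51, which binds NADH and the flavin, stood at 5.66 in the excluded cell and at 1.19, 3.98, 0.00 and 5.88 in cells 1 to 4, from 244 reads in the excluded cell and 5, 51, 0 and 258 reads in the kept cells. Cells 1 and 3 were thus the low ones. MMQuant gave ND-51 alone more reads, 588 in the excluded cell and 31, 157, 2 and 676 in cells 1 to 4, and its mean log2 level over the kept cells was 2.76 by STAR and 3.92 by MMQuant. ND-18 and ND-B17.2, subunits of the same module, had 0 reads in cell 3 and between 11 and 235 reads in cells 1, 2 and 4.

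In the Q module no gene had 0 reads in cell 3. Its 8 genes were all at or above 1 RPM in the excluded cell and in cells 1, 2 and 4, and 4 of the 8 were in cell 3. Over all genes of each module, the median of cell 3 minus the mean of the other 3 kept cells was -4.20 on the log2 scale for the Q module, -3.70 for the N module and -2.26 for the membrane arm. These medians include ND-B8 and ND-MNLL, which had 0 reads in every cell. Over genes at or above 10 RPM in each of the other 3 kept cells, the medians were -4.20 for the Q module (8 genes), -4.35 for the N module (3 genes) and -2.82 for the membrane arm (16 genes). The order of the Q and N modules thus depended on the genes taken. ND-49, which helps to form the ubiquinone site, was at 6.72 in the excluded cell and at 6.07, 5.25, 2.07 and 4.70 in cells 1 to 4 (mean 4.52 ± 1.73). The interval of ND-49 in cell 3, 1.43 to 2.69, lay below those of the other cells.

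The membrane arm held both the most variable and the steadiest genes of the complex. ND-42, an accessory subunit of the arm, had 1105 reads in the excluded cell and 3291, 1604, 3 and 2093 reads in cells 1 to 4. On the log2(RPM + 1) scale ND-42 was 7.82 in the excluded cell and 9.72, 8.86, 0.80 and 8.88 in cells 1 to 4, the widest spread of any core gene (mean 7.06 ± 4.20). ND-ASHI, another accessory subunit, had 906 reads in the excluded cell and 534, 336, 1 and 551 reads in cells 1 to 4. In these genes cell 3 had almost no reads while each of the other 4 cells had at least 336.

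ND-B16.6, the homolog of mammalian GRIM-19, varied least among the core genes with reads. It read 6.95 in the excluded cell and 7.85, 7.61, 7.47 and 7.64 in cells 1 to 4 (mean 7.64 ± 0.16). ND-B14.7 was at 8.47 in the excluded cell and at 8.01, 7.88, 6.29 and 8.41 in cells 1 to 4. ND-MLRQ, whose mammalian counterpart NDUFA4 is now assigned to complex IV, was at 8.86 in the excluded cell and at 8.69, 7.79, 8.34 and 8.63 in cells 1 to 4. These 3 genes had the highest means of the complex, and for ND-MLRQ cell 3 fell inside the range of the other kept cells. For ND-B16.6 cell 3 was the lowest kept cell, by a small margin (-0.23 against the mean of the other 3). A few membrane arm genes went the other way in cell 3. ND-B18, singled out after its values were seen, had 205 reads in the excluded cell and 85, 78, 402 and 274 reads in cells 1 to 4, and its log2 level in cell 3 was 1.63 above the mean of the other 3 kept cells.

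**Figure D2:**
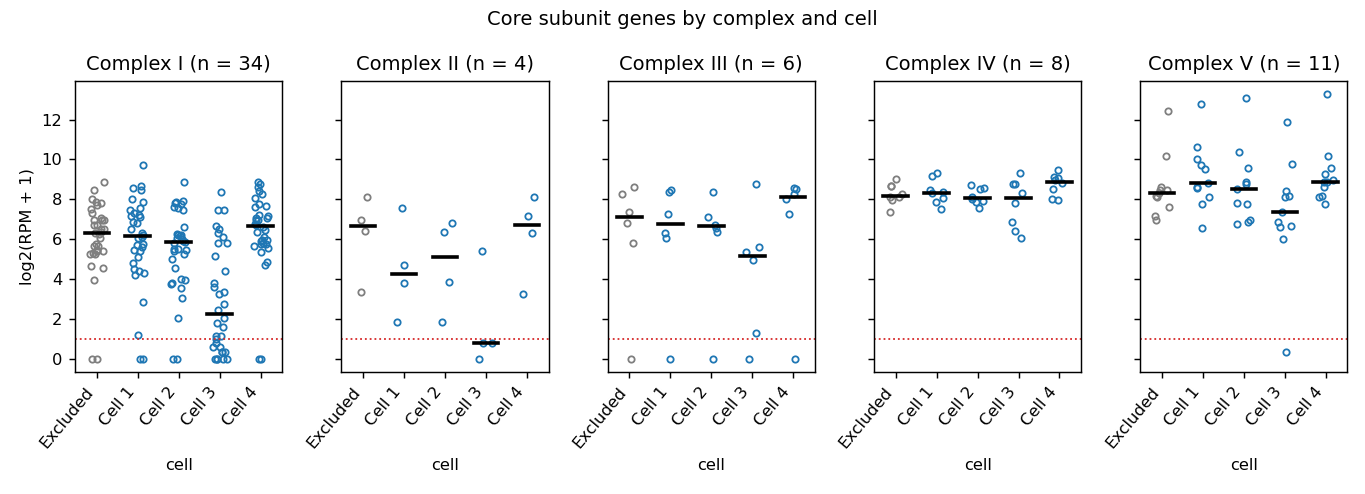
Each open circle is a core subunit gene, as log2(RPM + 1), in the excluded cell (grey) and cells 1 to 4 (blue), 1 panel per complex; bars are medians and the dotted line marks 1 RPM. By the STAR counts shown, in cell 3 the median of complex I was 2.25 and that of complex II 0.80, while that of complex IV was 8.07, close to the other cells.

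Complex II, succinate dehydrogenase, belongs to the citric acid cycle as well as to the respiratory chain and has no subunit from the mitochondrial genome. SdhA, the flavoprotein that oxidises succinate, had 1349 reads in the excluded cell and 749, 389, 167 and 1237 reads in cells 1 to 4. SdhA was the only gene of the 4 at or above 1 RPM in all kept cells, at 8.11 on the log2(RPM + 1) scale in the excluded cell and 7.59, 6.83, 5.39 and 8.13 in cells 1 to 4. SdhC and SdhD, the membrane anchors, were uneven. SdhC had 411 reads in the excluded cell and 10, 46, 0 and 346 in cells 1 to 4, and SdhD had 609 in the excluded cell and 50, 282, 3 and 634 in cells 1 to 4. By these counts cell 1 held few reads of both anchors beside ample SdhA. In cell 3 SdhC had no read, while the SdhD count there depended on the counting method, as given with the shared reads. SdhB, the iron-sulphur subunit, had only 45 reads in the excluded cell and 98, 9, 3 and 38 in cells 1 to 4, a count limited by a neighbouring gene, as described with the shared reads.

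Complex III, the cytochrome bc1 complex, had a median of 7.09 in the excluded cell and of 6.78, 6.64, 5.14 and 8.12 in cells 1 to 4. The core proteins UQCR-C1 and UQCR-C2 were both lowest in cell 3 and highest in cell 4, but by different margins. UQCR-C1 was at 5.79 in the excluded cell and at 6.04, 6.73, 5.60 and 7.28 in cells 1 to 4, with cell 3 the lowest of the 5. UQCR-C2 was at 8.27 in the excluded cell and at 8.46, 8.36, 4.95 and 8.50 in cells 1 to 4, so that 3 kept cells were nearly equal and cell 3 was apart. The small subunits differed more strongly still. UQCR-Q had 817 reads in the excluded cell and 1270, 468, 6 and 1686 reads in cells 1 to 4, while UQCR-11 had 1892 reads in the excluded cell and 597, 323, 1774 and 1342 reads in cells 1 to 4. Within the same complex, then, cell 3 was the lowest kept cell for UQCR-Q and the highest for UQCR-11. UQCR-6.4 lay between these extremes, at 6.80 in the excluded cell and 6.30, 6.37, 5.33 and 7.99 in cells 1 to 4.

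Complex IV, cytochrome c oxidase, was the most even. Its median was 8.19 in the excluded cell and 8.32, 8.08, 8.07 and 8.88 in cells 1 to 4, and the SD of a gene over the kept cells had a median of 0.49 (0.19 to 1.13), against 1.13 over all core genes. COX5B had 1985 reads in the excluded cell and 2275, 1297, 1747 and 2440 reads in cells 1 to 4, for a mean log2 level of 8.90 ± 0.30. COX6B was similar, with 2500 reads in the excluded cell and 2528, 1440, 1757 and 3142 reads in cells 1 to 4. COX4, the largest nuclear-encoded subunit in mammals, was at 8.65 in the excluded cell and at 8.47, 8.51, 7.83 and 9.04 in cells 1 to 4. In none of these genes was cell 3 missing, and in COX5B and COX6B it lay inside the range of the others. COX8 had the lowest mean of the complex and was at 7.38 in the excluded cell and at 7.52, 7.56, 6.84 and 7.99 in cells 1 to 4.

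Some genes of complex IV did set cell 3 apart, in both directions. COX5A read 8.26 in the excluded cell and 8.29, 7.92, 6.39 and 8.81 in cells 1 to 4. COX7B read 8.10 in the excluded cell and 8.34, 7.87, 6.04 and 8.52 in cells 1 to 4. Both were lowest in cell 3 at 82.7 RPM for COX5A and 65.0 RPM for COX7B. COX7C had 1217 reads in the excluded cell and 1040, 966, 2615 and 2207 in cells 1 to 4, with cell 3 the highest.

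Complex V carried most of the reads of the set. ATPsynC (chromosome 3R, 31216145 to 31219630, minus strand, BDGP6) encodes the c subunit, whose ring turns in the membrane as protons pass. It had 26793 reads in the excluded cell and 27525, 30126, 15477 and 43895 reads in cells 1 to 4. The log2 level was 12.41 in the excluded cell and 12.78, 13.09, 11.89 and 13.27 in cells 1 to 4 (mean 12.76 ± 0.61), and no 2 of the 5 counting intervals overlapped. By reads ATPsynC ranked 13th of the 8543 genes with a read in the excluded cell, and 18th, 13th, 37th and 6th in cells 1 to 4.

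ATPsynC alone held 32.3% of the core reads in the excluded cell (95% interval 32.0% to 32.7%) and 32.7%, 45.5%, 37.1% and 39.1% in cells 1 to 4. The other 62 core genes together took 1.14% of assigned reads in the excluded cell and 1.45%, 1.04%, 0.644% and 1.54% in cells 1 to 4, so that cell 3 stayed the lowest without it.

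ATPsynbeta, the catalytic subunit of the head, had 5693 reads in the excluded cell and 6112, 4604, 1373 and 5195 in cells 1 to 4. It was at 10.18 in the excluded cell and at 10.61, 10.38, 8.40 and 10.19 in cells 1 to 4, again lowest in cell 3. ATPsynB, of the peripheral stalk, was at 8.63 in the excluded cell and at 9.75, 8.88, 9.75 and 9.28 in cells 1 to 4, and was as high in cell 3 as in cell 1. ATPsynD, also of the stalk, was at 7.15 in the excluded cell and at 7.77, 6.85, 6.03 and 7.74 in cells 1 to 4. ATPsynG, a membrane subunit, was at 8.14 in the excluded cell and at 9.50, 8.78, 6.59 and 8.86 in cells 1 to 4. ATPsyndelta, of the central stalk, was the 1 gene of complex V below 1 RPM in a cell. It had 1719 reads in the excluded cell and 363, 373, 1 and 1250 in cells 1 to 4, so that the excluded cell was the highest of the 5.

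Between genes, levels were compared per kb of exon. Over the 4 kept cells the median of ATPsynC was 4218 RPM per kb (2032 to 5290). The next was ATPsynE at 1069 RPM per kb, followed by ATPsynB at 806, COX6B at 682 and COX5B at 671, and the ranges of these 4 over the kept cells overlapped each other while that of ATPsynC lay above them. ATPsynC was the highest gene of complex V per kb in all 5 cells, and ND-MLRQ the highest of complex I in all 5. In complex I the spread was wide. ND-MLRQ was 9.53 times the complex median per kb in the excluded cell and 8.70, 6.13, 169 and 7.75 times in cells 1 to 4, whereas the highest gene of complex IV was 1.68 times the median in the excluded cell and between 1.50 and 2.23 times in the kept cells. The libraries were primed with oligo(dT) and read mostly at 3′ ends, so a level per kb of whole exon is only an approximate scale.

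To ask how far each kept cell departed from the rest, it was set against the other 3 by the same rule for every cell. Among core genes at or above 10 RPM in each of the other 3 kept cells, cell 1 was below 1 RPM for 0 of 36, against 194 of 1554 genes in all (12.5%). Cell 2 was below 1 RPM for 0 of 36, against 9 of 1269 (0.709%), and cell 4 for 0 of 36, against 23 of 1282 (1.79%). Cell 3 was below 1 RPM for 10 of 54 core genes (18.5%), against 665 of 2133 genes in all (31.2%). The share of core genes missing from cell 3 was therefore below that of all genes, and cell 1, which missed many other genes, missed no core subunit. Split by complex, the genes missing from cell 3 were 8 of 28 in complex I (28.6%), 1 of 2 in complex II, 0 of 5 in complex III, 0 of 8 in complex IV and 1 of 11 in complex V. The complex II gene was SdhD, whose count in cell 3 depended on the counting method.

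**Figure D3:**
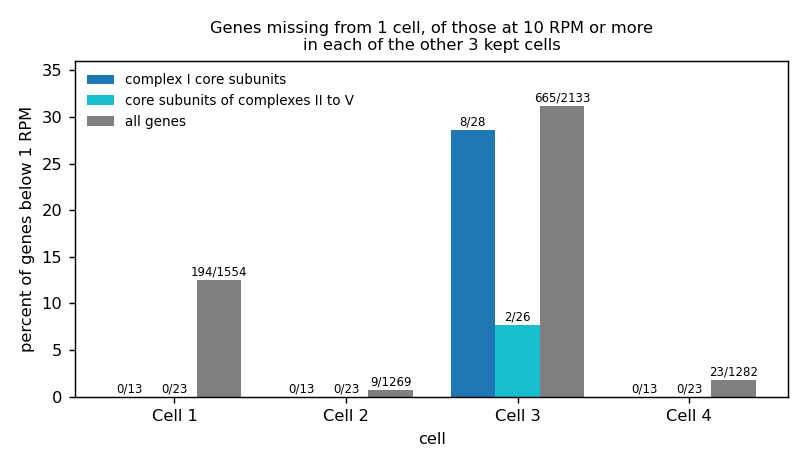
Percent of genes below 1 RPM in each kept cell, among genes at or above 10 RPM in each of the other 3 kept cells, for complex I (blue), complexes II to V (cyan) and all genes of the table (grey), with the counts above the bars. Cells 1, 2 and 4 missed no core subunit; cell 3 missed 8 of 28 complex I genes, 2 of 26 core genes of the other complexes and 665 of 2133 of all genes.

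The counts were also taken within bands of level, set by the lowest of the other 3 cells. In the band from 1 to 10 RPM cell 3 was below 1 RPM for 4 of 6 core genes (66.7%), against 57.5% of 1186 genes in all. In the band from 10 to 100 RPM cell 3 was below 1 RPM for 9 of 25 core genes, against 607 of 1419 genes in all (42.8%). In the band from 100 to 1000 RPM it was below 1 RPM for 1 of 27 core genes, against 58 of 592 (9.80%). Within the band from 10 to 100 RPM the genes below 1 RPM in cell 3 were 7 of 20 in complex I and 2 of 5 in complexes II to V together, and from 100 to 1000 RPM they were 1 of 8 in complex I and 0 of 19 in the other complexes. Of the complex I genes in these 2 bands 20 of 28 were in the lower one, where the other complexes had 5.

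The differences in level followed the same lines. Over genes at or above 10 RPM in each of the other cells, the median of cell 3 minus the mean of the other 3 was -3.43 on the log2 scale for complex I, -3.55 for the 2 such genes of complex II, -1.56 for complex III, -0.63 for complex IV and -1.42 for complex V. Over all 54 core genes it was -2.06, against -2.46 for all 2133 genes. In the same measure the core median was 0.42 for cell 1, -0.04 for cell 2 and 0.75 for cell 4. Cell 3 was the lowest of the 4 kept cells for 46 of 63 core genes (73.0%), against 41.0% of the 6219 genes that reached 10 RPM in at least 1 kept cell. The 2 shares are not alike, since many of the 6219 can be at 0 in several cells, and such a tie gives no lowest cell. Among genes at or above 10 RPM in each of the other 3, cell 3 was below their mean for 47 of 54 core genes and for 1619 of 2133 genes in all. Cell 4 was the highest for 34 (54.0%), against 32.7% of the 6219. Cell 2 was the highest for 0 core genes, against 25.9% of the 6219.

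Core genes ranged widely around these medians. In cell 3 the largest deficits against the other 3 cells were those of ND-42 (-8.36), ATPsyndelta (-6.84), UQCR-Q (-6.70) and ND-ASHI (-6.58). The largest excesses in cell 3, named for their values, were those of ND-B18 (1.63), UQCR-11 (1.41) and ND-B12 (1.27). In cell 4 the largest excesses were those of SdhC (4.41) and ND-51 (4.16), and the lowest values were close to 0. Cell 1 ran from -2.10 for ND-51 to 3.54 for ND-42. Since the mean of the other 3 includes cell 3 for cells 1, 2 and 4, their excesses contain the low reading of the same genes in cell 3.

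**Figure D4:**
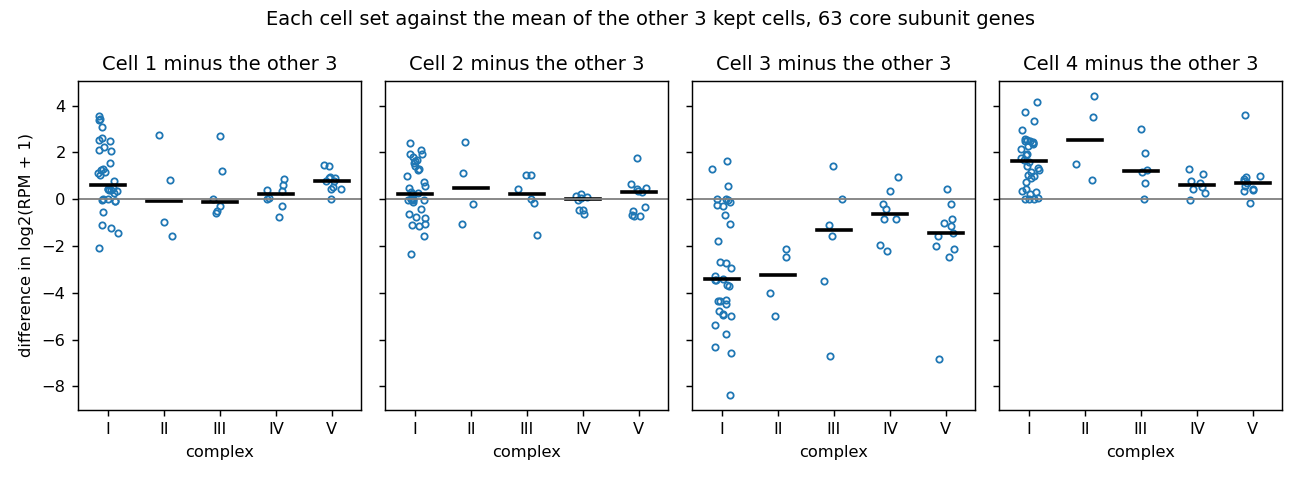
Each circle is a core subunit gene, as the log2(RPM + 1) of 1 kept cell minus the mean of the other 3, by complex (I to V), with bars at the medians over all genes of the complex; the grey line is 0. Cell 3 reaches down to -8.36 in complex I and its complex IV genes stay nearest to 0, while the genes of cell 4 lie at or above 0 except for ATPsynB, COX7A and ND-B16.6, which lie just below it.

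The order of the core genes by level was nonetheless shared. As a description across the 63 genes, which share a library and its depth and are not independent, Spearman's rho between kept cells ran from 0.713 to 0.950, with the 3 pairs that include cell 3 between 0.713 and 0.732. Pairs with the excluded cell ran from 0.678 to 0.907. Of the 60 core genes with a read, the excluded cell lay within the range of the 4 kept cells for 48 (80.0%), above it for 9 and below it for 3, and 7 of the 9 above were in complex I. Over the 6219 genes that reached 10 RPM in at least 1 kept cell, it lay within the range for 64.8%. The low values of cell 3 widen that range.

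The 3 core genes with 0 reads everywhere overlap another gene in the annotation, as do several with few reads. For such reads the MMQuant counts, in which a read is given to the group of genes it matches, were set beside the STAR counts. UQCR-14 (X, 16286288 to 16286988, plus strand) lies wholly within the span of CG32576 (X, 16285953 to 16288533, minus strand). MMQuant gave 2171 shared reads in the excluded cell and 4003, 1500, 2604 and 3177 in cells 1 to 4, where STAR had 0 in all cells. With all shared reads counted for it, UQCR-14 would be at 8.71 in the excluded cell and at 9.72, 8.36, 9.17 and 9.31 in cells 1 to 4, an upper limit since the libraries keep no strand. The CG32576 reads assigned by STAR were 31 in the excluded cell and 0, 5, 1 and 251 in cells 1 to 4.

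ND-MNLL has the same annotated span as CG45089 (X, 7893053 to 7893798, minus strand), and their 437 shared reads in the excluded cell and 200, 93, 50 and 407 in cells 1 to 4 cannot be divided between them. ND-B8 (2L, 4454626 to 4455207, plus strand) overlaps the end of Gs1l by 71 bp on the other strand. STAR's unstranded count for ND-B8 was 0 in all 5 cells. The sum of its strand-specific counts, an upper limit, was 53 in the excluded cell and 2, 33, 0 and 76 in cells 1 to 4. MMQuant gave ND-B8 0 shared reads in every cell and 3 reads of its own in the excluded cell and 0, 0, 0 and 2 in cells 1 to 4. For these 3 genes a count of 0 does not show absence.

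SdhB (2R, 6807626 to 6809172, plus strand) overlaps CG15237 by 129 bp at its 3′ end. Against its 45 STAR reads in the excluded cell and 98, 9, 3 and 38 in cells 1 to 4, MMQuant gave SdhB alone 493 reads in the excluded cell and 796, 223, 41 and 636 in cells 1 to 4, plus 454 shared reads in the excluded cell and 599, 155, 25 and 504 in the kept cells. Cell 3 remained the lowest under both counts. SdhD, which overlaps PTPMT1 by 124 bp, had 3 STAR reads in cell 3 and 50 in cell 1. MMQuant gave SdhD 105 reads of its own and 69 shared reads in cell 3, and 54 and 0 in cell 1, so both its absence from cell 3 and the order of these cells turn with the counting. ND-AGGG does not overlap CG40472, yet the 2 shared 2733 reads in the excluded cell and 1656, 1774, 1608 and 5643 in cells 1 to 4, against 265 STAR reads for ND-AGGG in the excluded cell and 184, 142, 221 and 645 in the kept cells. Over all genes with a read, 17% had more reads shared by MMQuant than assigned by STAR.

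**Figure D5:**
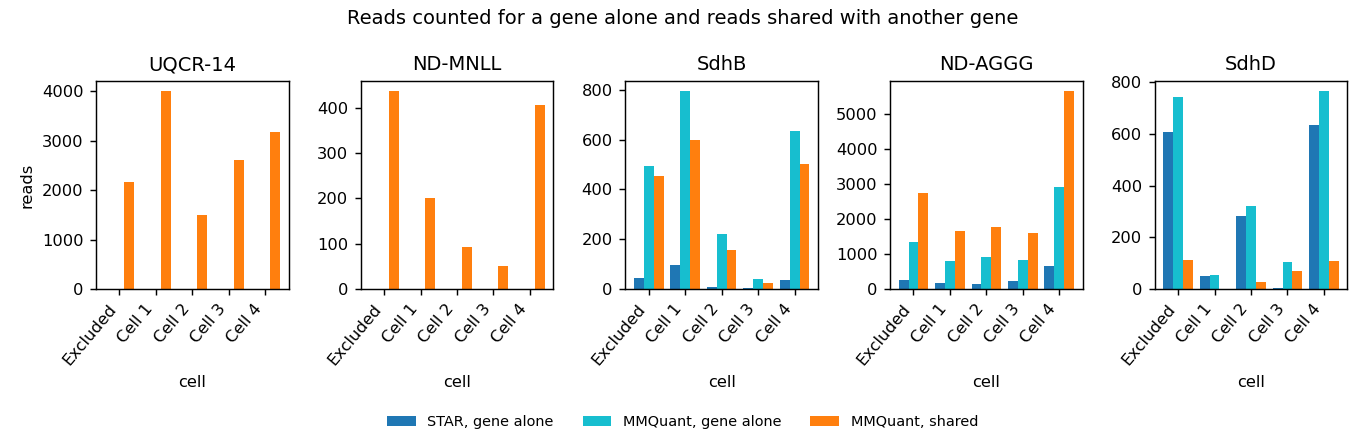
Reads per cell for 5 core genes, as assigned by STAR to the gene alone (blue), by MMQuant to the gene alone (cyan) and by MMQuant to a group that includes the gene (orange), in the excluded cell and cells 1 to 4. UQCR-14 has only shared reads (1500 to 4003), and SdhB and ND-AGGG have more shared than STAR reads in every cell.

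The paralogs had few assigned reads. Many such copies in *Drosophila* are expressed mainly in the testis. Of 24, only COX7AL2 reached 1 RPM by the unstranded STAR count, with 55 reads in the excluded cell and 0, 63, 0 and 342 in cells 1 to 4, and 20 had 0 reads in all cells, against 42.3% of all genes and 32.9% of protein-coding genes with 0 reads. COX7AL2 in cell 4 was at 6.29 on the log2(RPM + 1) scale (95% interval 6.13 to 6.44), below COX7A at 8.02. The other 3 with a read were COX4L (3 reads in the excluded cell), SdhBL (1 read in cell 1) and ATPsynbetaL (1 read in cell 3). Other counts gave reads to some that had 0. COX7CL had strand-specific sums, which are upper limits, of 10 in the excluded cell and of 36, 45, 1 and 0 in cells 1 to 4. It had 0 MMQuant reads in every cell. COX6AL2 had 4 MMQuant reads shared with other genes in the excluded cell and 72, 0, 0 and 0 in cells 1 to 4. The assembly factor Sdhaf3, which serves complex II, had 31 reads in the excluded cell and 0, 4, 0 and 50 reads in cells 1 to 4.

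Subunits that the prefixes miss because they have other symbols were also mostly present, but cell 3 was not the lowest kept cell for all of them. Of 7 such genes, 6 were at or above 1 RPM in all kept cells. Among them *blw*, the alpha subunit of the ATP synthase head, had 6217 reads in the excluded cell and 11014, 7830, 2871 and 12949 in cells 1 to 4, and was lowest in cell 3 as its partner ATPsynbeta was. *Cyt-c1*, the cytochrome of complex III, had 1156 reads in the excluded cell and 1177, 655, 68 and 1264 in cells 1 to 4. The seventh, *ox*, a small subunit of complex III, had 464 reads in the excluded cell and 351, 441, 1 and 632 in cells 1 to 4. *cype*, a complex IV subunit, was highest in cell 3, with 630 reads in the excluded cell and 494, 539, 1158 and 979 in cells 1 to 4. Of the rest, *sun* was lowest in cell 3 (7.02 on the log2 scale). *RFeSP* (5.58) and *levy* (6.37) had their lowest level among kept cells in cell 2.

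Other mitochondrial lists differed in how fully they were seen. In all 4 kept cells 9 of 12 citric acid cycle genes, 5 of 8 inner and outer membrane carriers, 0 of 9 assembly and cofactor genes and 2 of 7 genes of mitochondrial biogenesis were at or above 1 RPM, beside 11.3% of all genes. Among the carriers *sesB*, the ADP/ATP translocase that exports the product of complex V, had 12852 reads in the excluded cell and 8702, 12166, 1910 and 27785 in cells 1 to 4, with cell 4 the highest and cell 3 the lowest as for ATPsynC. *porin*, the outer membrane channel, varied less, with 6055 reads in the excluded cell and 3127, 2880, 1880 and 5264 in cells 1 to 4. In the citric acid cycle *Mdh2*, malate dehydrogenase, had 947 reads in the excluded cell and 3261, 1011, 1342 and 2615 in cells 1 to 4, whereas *Ogdh*, of the oxoglutarate dehydrogenase complex, had 1327 in the excluded cell and 392, 329, 0 and 763 in cells 1 to 4. Cell 3 thus held some genes of the cycle at ordinary levels and missed others, as it did in complex I.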

How the data were processed

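Single cells were collected by pipet, their RNA was taken through 3 rounds of oligo(dT)-primed antisense amplification, and unstranded libraries were read as 100 bp single ends. Reads were trimmed by the authors (Trim Galore, then PRINSEQ) and aligned with RNA STAR in Galaxy to the dm6 genome (annotation BDGP6, release 87). The authors deposited counts per gene for each cell, without normalization, together with MMQuant counts in which reads matching several genes are kept as groups. The 4 totals that open each STAR table (unmapped, multimapping, outside exons, ambiguous) name no gene and stayed out of the library sizes; they were 45.8% of trimmed reads in the excluded cell and 50.9% to 62.6% in cells 1 to 4.

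The unstranded STAR column was scaled to RPM over assigned reads with a pseudocount of 1 RPM and no filter on low values. Of 17453 identifiers, 17178 had a symbol. Positions and exon lengths came from Ensembl release 115 (BDGP6.54, the assembly of dm6). Python 3.11.15, numpy 2.4.6, pandas 2.3.3, scipy 1.17.1 and matplotlib 3.10.9 were used, and the scripts were tested on simulated data. With 1 condition and no groups to compare, no differential test was run, and p-values are not given. Labels do not say that the cells are more than separate cells, so the SD is the spread between cells.

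Values in every cell were given for ATPsynC, the 4 Sdh subunits, the 3 highest, 2 lowest and 2 most variable core genes of complexes I, III, IV and V over the kept cells, chosen catalytic or large subunits, and paralogs at or above 1 RPM. Members and lists were chosen with earlier results of these data known. The alternatives were another denominator, stranded or MMQuant counts, added shared reads, thinning to 3451331 reads, other thresholds, a pseudocount of 0.1 RPM, a minimum of 10 reads, levels per kb, all 5 cells, and leaving out each kept cell.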

Additional observations from a re-analysis of the deposited data

Results flagged for a closer look

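Among 46 values examined over the 4 kept cells (the named members and the medians and shares of each complex), 3 had a cell far from the others by Dixon's criterion. That criterion marks about 1 in 20 groups by chance, but the 3 genes were named for their large SD over the same cells, so this rate cannot be read for them. In each the far value was the low one of cell 3, on the log2(RPM + 1) scale 0.796 for ND-42, 0.316 for ND-ASHI and 4.95 for UQCR-C2. Over all core genes 6 of 63 (9.52%) met the criterion, against 19.8% of the 6219 genes that reached 10 RPM in at least 1 kept cell. Cell 3 was also the cell in which *Dh44* took 131997 RPM, and its part in these low values was not tested.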

How the results depend on the processing

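Of 124 values recomputed for the comparisons, 9 moved and the rest stayed within the set limits. The limit was a ratio of 1.5 for a count of genes, and the SD over the 4 kept cells for a share or a median. Taken over every uniquely mapped read, the share on core genes was 0.987% in the excluded cell and 1.34%, 1.19% and 1.45% in cells 1, 2 and 4, a shift set by the larger denominator. At a threshold of 100 RPM, 15 core genes passed in all 4 kept cells, and 39 passed in the excluded cell and 36, 31 and 17 in cells 1, 2 and 3. Leaving out each kept cell gave 46 to 60 core genes present in all that remained, and the 60 came from leaving out cell 3. For the means of the named members, 407 of 438 values stayed and 31 moved. The limit there was the SD of the gene over the 4 kept cells, which is wide where cell 3 is low, so a mean that stayed can still differ much. The stranded sums can count a read for both of the genes it overlaps. With them the mean log2 level of ND-51 went from 2.76 to 4.16 and that of SdhD from 4.53 to 5.81, and both count as stayed. The order of cells could turn with the counting, as SdhD had 3 reads in cell 3 and 50 in cell 1 by STAR, but 105 and 54 by MMQuant. No paired analysis was possible because the excluded cell and the kept cells share no replicate number. Each cell is 1 library with 3451331 to 4913151 assigned reads, so the rough limit of 3 reads for a count of 0 is 0.611 to 0.869 RPM, and reads at overlapping 3′ ends are undercounted.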
